A study of Drosophila melanogaster with 3 samples.

Results

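The genes described here encode the RNA polymerase II transcription machinery and Mediator. They were chosen by name from the deposited ChIP-seq peak tables of *Drosophila* S2 cells: every listed gene whose name begins with RpII, TfII, Taf plus a digit, MED plus a digit or Spt plus a digit. This gave 37 of the 6016 genes listed in the tables, 26 of them in the SMARCAD1 table and 30 in the CBP table. SMARCAD1 (the *Etl1* product) is an ATP-dependent remodeler of the Snf2 family, and CBP (*nej*) is a histone acetyltransferase and coactivator. S2 is an embryo-derived cell line, and the peak tables hold no expression values by which its identity could be checked. All cells had been given dsRNA of EGFP, a nonspecific control, for 6 h at 26 °C and were then kept in serum for 72 h, so both libraries share this treatment. There was 1 SMARCAD1 library and 1 CBP library, made with rabbit antibodies raised against whole recombinant SMARCAD1 or a part of CBP, and an input DNA library whose values were not analysed here. The SMARCAD1 table held 3211 peaks with a median width of 1792 bp and that of CBP held 3762 peaks with a median width of 1487 bp. The spread between replicate libraries is therefore unknown, and no test was made between the antibodies or between these genes and others. Intervals given with shares are Wilson 95% intervals and cover counting error only.

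RNA polymerase II transcribes protein-coding genes from core promoters where general transcription factors assemble. TFIID, made of TBP and the TBP-associated factors (TAFs), recognizes the promoter, TFIIB and TFIIF bring in the polymerase, and Mediator connects activators bound elsewhere to the assembled complex. Spt factors act during elongation or as part of the SAGA coactivator. Genes for most of this machinery are expressed in all growing cells.

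Each peak is described by its class relative to the gene and by the distance from the gene start to the peak center, which is negative upstream. A start counts as covered when it lies between the ends of a peak, which holds for the classes OverlapStart and IncludeFeature (the peak contains the whole gene). The tables give 1 start per gene. Neither table gives the strength of a peak, so a start without a peak may also be one with a peak below the calling threshold. For the same reason a listed peak may be a weak or false call.

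Most of these genes had a peak over the start, as did most listed genes. SMARCAD1 covered the start of 17 of 37 genes, CBP of 27, and both together of 14. SMARCAD1 alone covered 3 starts and CBP alone 13, and 7 genes were listed only for peaks elsewhere, as were 1548 of all 6016 listed genes. For SMARCAD1 the share was 45.9% (31 to 61.6%), and it was also 45.9% over all 6016 listed genes. For CBP it was 73% (57 to 84.6%), against 59.9% over all listed genes, a value inside the interval. Both antibodies covered 37.8% of these starts (24.1 to 53.9%), against 31.6% of all listed genes. SMARCAD1 alone covered 8.11% (2.8 to 21.3%), against 14.3%. CBP alone covered 35.1% (21.8 to 51.2%), against 28.3%. None of the 5 shares of all listed genes lay outside the interval of the machinery genes.

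**Figure D1:**
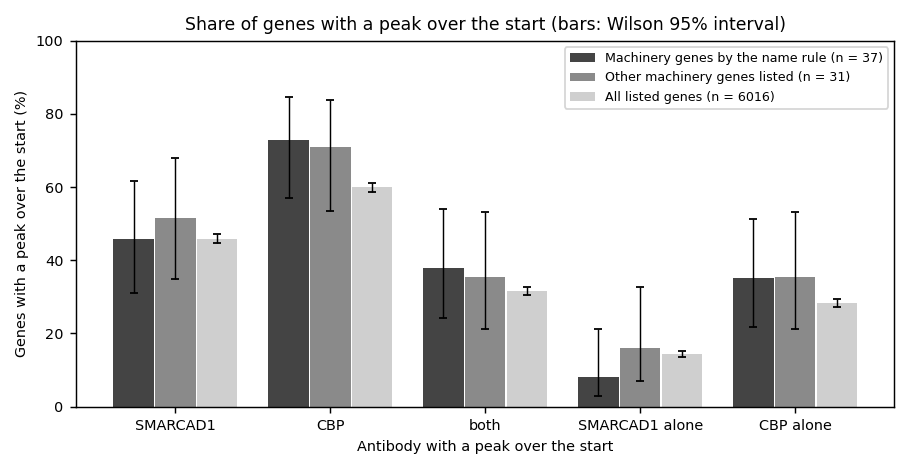
Percentage of genes (y axis) whose start is covered by a SMARCAD1 peak, a CBP peak, both, or 1 antibody alone (x axis), for the 37 machinery genes, for 31 other listed machinery genes and for all 6016 listed genes. Error bars are Wilson 95% intervals; the bars of the machinery genes for CBP stand at 73% and 71%, against 59.9% for all genes, within both error bars.

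A listed gene needs a peak near it, so the same families were also counted from the RefSeq gene table. By name, RefSeq holds 59 protein-coding genes of these families, of which 37 (62.7%) are the genes described here. Of all 13962 protein-coding RefSeq genes, 39.5% were matched to a listed gene. A SMARCAD1 peak covered the start of 28.8% of the 59 family genes, against 17.9% of all protein-coding genes. A CBP peak covered 45.8%, against 24.1%. The other family genes carried no entry under these names. They include MED1, MED14 (the scaffold subunit), MED17, Taf4, Taf9, Taf12, TfIIEbeta, Spt7 and the second largest polymerase subunit, which RefSeq calls Polr2B. Spt20 was listed only under its CG number, and neither antibody covered its start. It is left out of the 62.7%, whereas the 39.5% counts genes listed under any matched name. No interval is given for these RefSeq shares.

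The starts were also counted by role. Among the TAF genes, SMARCAD1 covered 3 of 9 and CBP 8 of 9. Among Mediator genes, SMARCAD1 covered 6 of 14 and CBP 11 of 14. The polymerase subunits were even, with 3 of 4 covered by each antibody. Among the TfII genes SMARCAD1 covered 4 of 7 and CBP 2 of 7. The 3 genes with a SMARCAD1 peak alone were the Mediator gene MED21 and the TfII genes TfIIA-S and TfIIFbeta, while no TfII gene had CBP alone. With 3 to 14 genes per role the intervals are wide: for CBP they run from 8.22 to 64.1% among TfII genes and from 56.5 to 98% among TAF genes, and these overlap. The shares over all listed genes, 45.9% for SMARCAD1 and 59.9% for CBP, lay inside the interval of every role.

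**Figure D2:**
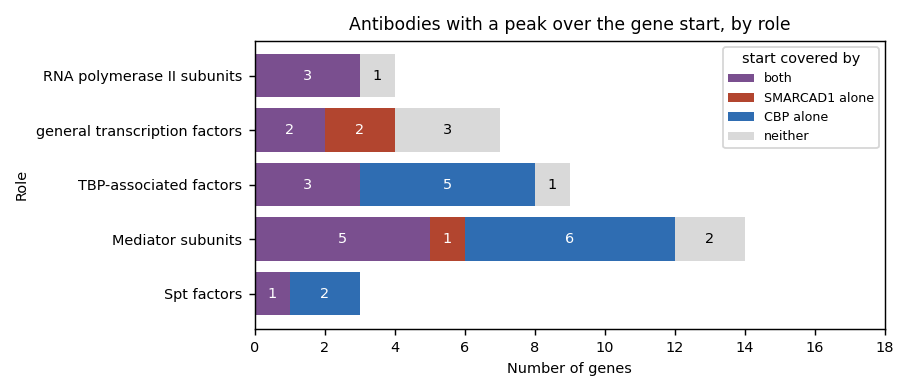
Number of genes (x axis) in each role (y axis) whose start is covered by both antibodies, by SMARCAD1 alone, by CBP alone or by neither. CBP alone accounts for 5 TAF, 6 Mediator and 2 Spt genes and for no polymerase subunit or TfII gene.

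Of the polymerase subunit genes, 3 small ones had both antibodies over the start. RpII33 (chr2L:13833339-13834306, + strand) encodes the Rpb3 subunit. Its SMARCAD1 peak was 850 bp wide and centered at -123 bp, and its CBP peak was 780 bp wide and centered at -155 bp. RpII18 (chr3R:1197520-1198125, + strand) encodes Rpb6, a subunit common to all 3 nuclear polymerases. Its SMARCAD1 peak of 915 bp was centered at -197 bp and its CBP peak of 812 bp at -72 bp. At both genes the peaks of the antibodies overlapped for most of their width. RpII15 (chr3R:10134816-10135566, + strand), which encodes Rpb9, was different. Its SMARCAD1 peak of 3022 bp contained the whole gene, with its center at -16 bp. Its CBP peak of 1575 bp covered the start but not the end of the gene, with its center at -576 bp. Both peaks also covered the start of su(Hw), on the other strand at -507 bp. The SMARCAD1 peak also covered the start of CG31321, 1273 bp downstream.

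RpII215 (chrX:11456806-11464355, - strand) encodes the largest subunit, which carries the C-terminal heptad repeats and the catalytic center. It had no peak of either antibody over its start. Its only entry was a SMARCAD1 peak of 1205 bp over the far end of the gene, centered 7305 bp downstream of the start. The nearest CBP peak lay 8294 bp from the start.

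Among the TfII genes, both antibodies covered the starts of TfIIB and TfIIFalpha. TfIIB (chr2L:10431344-10432999, + strand) encodes the factor that positions the polymerase at the start. Its SMARCAD1 peak of 1302 bp was centered at -376 bp and its CBP peak of 1120 bp at -306 bp. TfIIFalpha (chr3R:2206181-2208326, + strand) had a SMARCAD1 peak of 870 bp at -157 bp and a CBP peak of 794 bp at -107 bp. TfIIFbeta, the gene of its partner in the TFIIF heterodimer (chr3R:6592344-6593668, - strand), had SMARCAD1 alone, in a peak of 936 bp centered 6 bp downstream of the start. The nearest CBP peak to it lay 6328 bp away. The 2 subunits of TFIIF thus differed in the antibodies listed over their starts.

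The TFIIA genes also differed from each other. TfIIA-S (chr3R:19716110-19716778, - strand) lay wholly inside a SMARCAD1 peak of 6931 bp, centered at 2711 bp, which covered the start of Pli as well. The nearest CBP peak was 4350 bp from its start. TfIIA-L (chr3R:23076834-23082186, + strand) had no peak over its start and a pair of peaks within the gene, SMARCAD1 at 2169 bp and CBP at 2270 bp. Both of these lay over the start of pll, which encodes the Toll pathway kinase Pelle.

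The remaining TfII genes were listed for peaks over their ends. TfIIEalpha (chr3L:11675126-11676905, + strand) had a CBP peak of 2490 bp at 2626 bp, which covered the start of the next gene, Sug. TfIIS (chr2L:15058919-15060753, - strand), which encodes the factor that rescues arrested polymerase, had a SMARCAD1 peak of 4384 bp at 3249 bp. That peak covered the starts of ck and CG33679.

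All 3 Spt genes had a CBP peak over the start. Spt5 (chr2R:15324991-15329403, + strand) encodes the large subunit of the pausing and elongation factor DSIF. Its CBP peak of 1268 bp was centered at -97 bp, and the nearest SMARCAD1 peak lay 12645 bp from the start. A second CBP peak over the end of Spt5 covered the start of the ribosomal protein gene RpL11. Spt3 (chr3R:7842822-7844272, + strand), for a subunit of SAGA, had a CBP peak of 752 bp at -80 bp and no SMARCAD1 peak within 5889 bp. Spt6 (chrX:6161847-6169019, + strand), for an elongation factor and histone chaperone, was the only Spt gene with both. Its peaks had nearly the same center, -509 bp for SMARCAD1 and -506 bp for CBP. The SMARCAD1 peak was 1620 bp wide, against 1533 bp for the CBP peak.

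Among the TAF genes, Taf5, Taf8 and Taf11 had both antibodies over the start. The SMARCAD1 and CBP peaks were centered at -136 and -164 bp at Taf11 and at -303 and -263 bp at Taf5. At Taf8 they were farther upstream, at -1003 bp for SMARCAD1 and -696 bp for CBP.

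CBP alone covered the starts of Taf2, Taf6, Taf7, Taf10 and Taf10b. At Taf2 (chr3L:9877505-9881781, - strand), whose product contacts the initiator, the peak of 1261 bp was centered at -198 bp, and the nearest SMARCAD1 peak was 21248 bp from the start. At Taf6 (chr3L:19592187-19594482, + strand), which encodes a histone-fold TAF, the peak of 872 bp was centered at -177 bp, and the nearest SMARCAD1 peak was 6138 bp away. For Taf7 (chr3R:3733055-3735445, + strand) the CBP peak of 833 bp was centered at 202 bp. A SMARCAD1 peak of 889 bp lay upstream of it at -1779 bp, its edge 1335 bp from the start. The Taf10 and Taf10b genes encode alternative histone-fold subunits and overlap on opposite strands of chromosome arm 2L, with starts 254 bp apart. A single CBP peak of 1436 bp (chr2L:2766821-2768256) covered both starts, so they are not separate observations. Its center lay at -374 bp from Taf10 and at 628 bp from Taf10b, which it contained whole. The nearest SMARCAD1 peak was 1330 bp from the start of Taf10.

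Taf1 (chr3R:2472611-2481770, + strand) encodes the largest TAF, the scaffold of TFIID. It was the only listed TAF gene with no peak over its start. A SMARCAD1 peak of 2002 bp lay inside it at 7303 bp, and the nearest CBP peak was 175392 bp from its start, the farthest in the set.

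Mediator is described as head, middle and tail modules from work in yeast and mammals, and the listed Mediator genes were grouped accordingly after their values were known. Of 5 genes for tail subunits, which receive activator signals, 4 had both antibodies over the start (MED15, MED16, MED25 and MED27) and MED23 had CBP alone. Of 6 genes placed in the middle module, SMARCAD1 covered 2 and CBP 5. Of 3 genes for head subunits, which contact the polymerase, SMARCAD1 covered 0 and CBP 1. Over all listed genes, both antibodies covered 31.6% of starts, SMARCAD1 45.9% and CBP 59.9%. Groups of this size allow no comparison between modules or with these shares.

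The widest peak of each antibody in the set was at MED15 (chr2L:473021-476176, + strand). Its SMARCAD1 peak of 7793 bp was centered at -3289 bp and its CBP peak of 5061 bp at -2010 bp. Both ended a short way inside the gene, 607 bp past the start for SMARCAD1 and 520 bp for CBP. At MED25 the SMARCAD1 peak of 2653 bp was centered at -1111 bp and the CBP peak of 1494 bp at -574 bp. At MED27 the centers nearly coincided, at -653 bp for SMARCAD1 and -629 bp for CBP, as they did at MED16, at -297 bp for SMARCAD1 and -279 bp for CBP. MED4, the middle subunit gene with both antibodies, had a SMARCAD1 peak of 940 bp at -213 bp and a CBP peak of 715 bp at -126 bp.

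CBP alone covered MED7, MED8, MED9, MED10, MED19 and MED23. The centers were close to the start at MED23 (-95 bp), MED9 (-110 bp) and MED7 (-148 bp). MED9 (chr2R:14054782-14055885, + strand) had the narrowest peak over a start in the set, 671 bp, with the nearest SMARCAD1 peak 2121 bp from the start. The CBP peak of MED7 was 877 bp wide. For MED7 (chr3R:6585793-6586754, - strand), the nearest SMARCAD1 peak was 6440 bp from the start and was the one over TfIIFbeta. The CBP peak nearest to TfIIFbeta was in turn the one over MED7, so these neighboring genes carried 1 antibody each. MED23 (chr2R:18776507-18783261, + strand), with a CBP peak of 787 bp, was farthest from a SMARCAD1 peak among the genes with CBP alone, at 34227 bp. MED10 (chr3L:16225129-16225836, + strand) lay wholly inside a CBP peak of 3141 bp centered at 64 bp, and its nearest SMARCAD1 peak was 28113 bp away. At MED8 (chr2R:16213346-16214311, - strand) the CBP peak of 1593 bp was centered at -546 bp, and a SMARCAD1 peak of 1113 bp lay beyond the other end of the gene, at 2276 bp.

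At MED19 (chr3L:17836906-17839600, - strand) both proteins had peaks at the gene but only CBP over the start. The CBP peak of 1331 bp was centered at -343 bp. A SMARCAD1 peak of 1347 bp lay inside the gene at 1268 bp, its edge 595 bp from the start. A second pair, SMARCAD1 at 3186 bp and CBP at 3214 bp, covered the end of MED19 and the start of CG5567.

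MED21 (chr3LHet:600374-601422, - strand) was the only gene of the set on heterochromatic sequence. It was contained in a SMARCAD1 peak of 2500 bp centered at 578 bp. The nearest CBP peak on that sequence was 29018 bp from its start.

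The Mediator genes MED6 and MED28 had no peak over the start. MED6 (chr3R:5591753-5594706, - strand) had a SMARCAD1 peak of 1021 bp upstream at -838 bp and a CBP peak of 1305 bp inside at 846 bp, which stopped 328 bp (SMARCAD1) and 194 bp (CBP) short of the start from either side. That CBP peak covered the start of CG8481. A second SMARCAD1 peak of 1008 bp lay over the end of MED6 at 2890 bp. MED28 (chr3R:21302725-21303467, + strand) had a SMARCAD1 peak of 1011 bp over its end, at 957 bp, with an edge 452 bp from the start. Its nearest CBP peak was 3259 bp away.

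**Figure D3:**
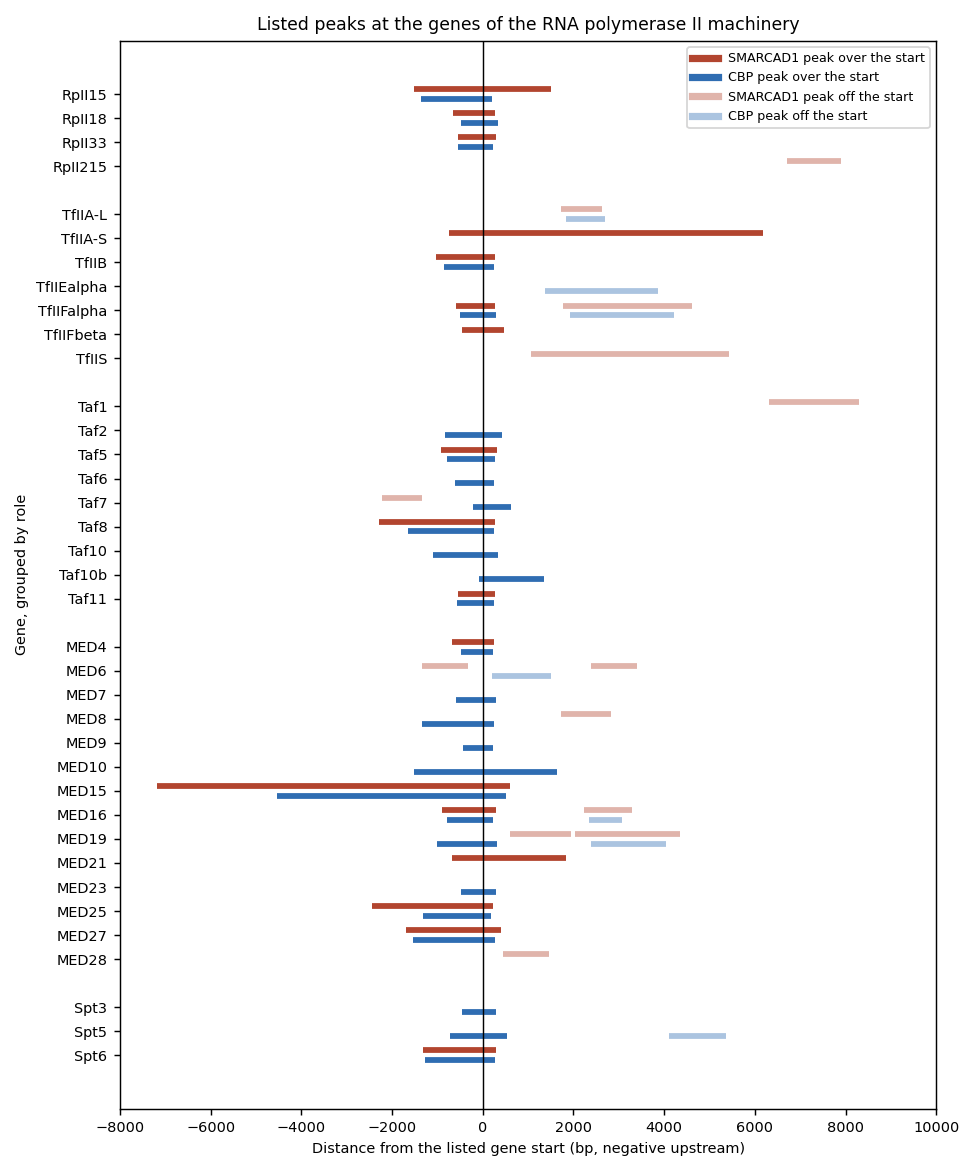
Listed SMARCAD1 peaks (upper bar of each gene) and CBP peaks (lower bar) of the 37 genes, in bp from the gene start (x axis, negative upstream), with genes on the y axis grouped by role. Dark bars cover the start and pale bars do not; most dark bars extend farther upstream than downstream, and the longest belongs to MED15 (7793 bp, SMARCAD1).

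Peaks over most of these starts were centered upstream, as they were over most listed genes. For SMARCAD1 the distance had a median of -213 bp over 17 genes (quartiles -509 and -123 bp). For CBP it had a median of -177 bp over 27 genes (quartiles -440 and -102 bp). The center was upstream at 14 of 17 genes for SMARCAD1, the exceptions being MED21, TfIIA-S and TfIIFbeta, against 67.5% of all 2763 genes. It was upstream at 24 of 27 for CBP, the exceptions being MED10, Taf7 and Taf10b, against 67.2% of all 3606 genes. Among all genes with a covered start, SMARCAD1 had a median of -192 bp, and CBP one of -129 bp.

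The downstream edges were close to the start. SMARCAD1 peaks ended a median of 301 bp inside the gene (quartiles 278 and 474 bp), against 608 bp over all 2763 genes with a covered start (quartiles 368 and 1526 bp). CBP peaks ended a median of 276 bp inside the gene (quartiles 248 and 339 bp), against 500 bp over all 3606 genes (quartiles 320 and 1111.5 bp). The median for these genes lay below the lower quartile of all genes for both antibodies. The largest values were 6176 bp for SMARCAD1 at TfIIA-S and 1634 bp for CBP at MED10, both peaks that contain the gene. Upstream, the peaks extended a median of 892 bp for SMARCAD1, against 1044 bp for all genes, and 778 bp for CBP, against 806 bp. Width followed, with a median of 1302 bp for SMARCAD1, against 2138 bp, and 1120 bp for CBP, against 1554.5 bp. The genes were not chosen by these values, but the pattern was noticed in the data and no test of it was made.

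**Figure D4:**
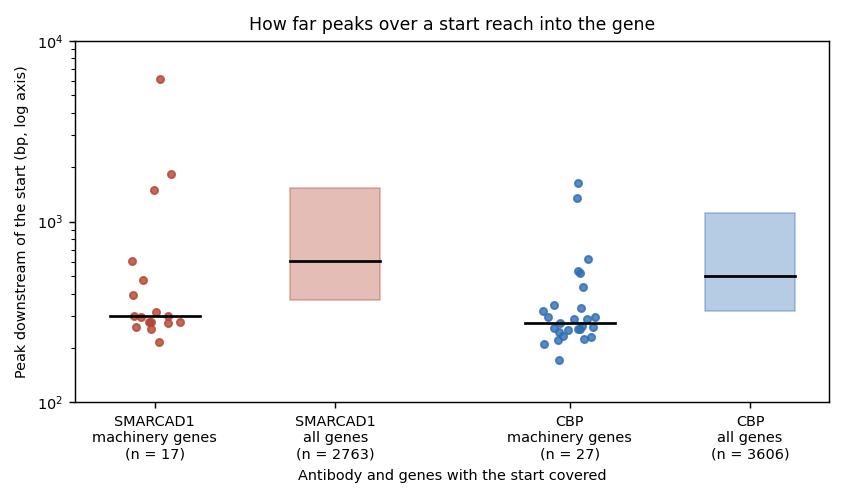
Distance from the gene start to the downstream end of the peak over it (y axis, bp, log scale) for SMARCAD1 and CBP (x axis). Points are single machinery genes with a black line at the median (301 bp for SMARCAD1, 276 bp for CBP), and boxes give the quartiles and median of all genes with a covered start (median 608 bp for SMARCAD1, 500 bp for CBP).

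Where both antibodies covered the start, the peaks overlap by definition, since both contain that start. At all 14 such genes the SMARCAD1 peak was the wider one, by a median of 186 bp and by 12 bp (Taf11) to 2732 bp (MED15). This was so at 86.2% of all 1901 genes with both antibodies, with a median of 269 bp. The CBP peak lay wholly inside the SMARCAD1 peak at 11 of 14 genes (78.6%), against 66.4% of all such genes. The exceptions were RpII18, where the SMARCAD1 peak covered 90.9% of the CBP peak, Taf11 (97.2%) and TfIIFalpha (98.6%). The SMARCAD1 distance minus the CBP distance had a median of -45 bp (binomial 95% interval -307 to 28 bp), against -10 bp over all 1901 genes. The gap was smallest at Spt6 (-3 bp) and largest at MED15 (-1279 bp). It was positive at RpII15 (560 bp), RpII33 (32 bp) and Taf11 (28 bp) and negative at the other 11, against 53.1% negative over all 1901 genes. The centers were within 100 bp of each other at 9 of 14 genes (64.3%), against 50% of all such genes.

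At the 13 genes with CBP alone, the nearest SMARCAD1 peak was a median of 5889 bp from the start. It lay within 2000 bp at 5 of them (MED8, MED19, Taf7, Taf10 and Taf10b). Taf10 and Taf10b share their CBP peak and this nearest SMARCAD1 peak, so they are not separate observations. Over all 1705 genes with CBP alone the median was 5439 bp, and 22.3% had a SMARCAD1 peak within 2000 bp. At the 3 genes with SMARCAD1 alone, no CBP peak lay within 2000 bp, the closest being the one 4350 bp from the start of TfIIA-S. Of all 862 genes with SMARCAD1 alone, 29.9% had one that near.

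Many of these peaks also covered the start of another gene on the opposite strand. This held for 11 of the 17 genes with a SMARCAD1 peak over the start (64.7%, 41.3 to 82.7%), against 62% of all 2763 genes with a SMARCAD1 peak there. It held for 24 of the 27 genes with a CBP peak over the start (88.9%, 71.9 to 96.1%), against 64.9% of all 3606 genes with a CBP peak over the start. The 27 genes had 26 CBP peaks, since Taf10 and Taf10b share one, and 23 of these 26 covered starts on both strands. The genes whose CBP peak covered no start on the other strand were MED4, MED15 and RpII18. Those 3 also lacked one under the SMARCAD1 peak, together with MED21, TfIIA-S and TfIIFbeta, which are the 3 genes with SMARCAD1 alone. A peak over 2 starts cannot be assigned to either gene by these tables.

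The start on the other strand lay upstream at 20 of these 24 genes, at -69 to -638 bp, with a median of -280 bp. These offsets were not computed over all genes, so whether they differ from those of other genes is unknown. The closest was CG3313 at Spt3 and the farthest CG7192 at Taf8. At MED10, Taf7, Taf10 and Taf10b it lay just inside the gene instead, from 3 bp (PDCD-5 at MED10) to 254 bp. The partners were of many kinds, and those with a known product are given as examples chosen after their values were seen. RpII15 faced su(Hw), which encodes an insulator protein, at -507 bp. Taf6 faced ash1, for a trithorax-group histone methyltransferase, at -339 bp, and MED7 faced Cap-H2, for a condensin II subunit, at -278 bp. RpII33 faced DNApol-gamma35, for the accessory subunit of the mitochondrial DNA polymerase, at -172 bp. MED9 faced the nucleoporin gene Nup75 at -148 bp, and Spt5 faced the kinase gene Fak56D at -217 bp. At Taf11 the partner was und at -101 bp, and at Taf2 the calpain gene CalpB at -132 bp.

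Downstream reach was compared again among peaks over starts on both strands alone. SMARCAD1 peaks of 11 genes ended a median of 298 bp inside the gene, against 594 bp over all 1712 genes with such a peak. CBP peaks of 24 genes ended a median of 271 bp inside, against 474 bp over 2340 genes. Where the peak covered no start on the other strand, the median was 540 bp over 6 genes for SMARCAD1 (range 256 to 6176 bp). For CBP it was 334 bp over 3 genes (range 231 to 520 bp). The median over all genes with such a peak was not computed, so these values allow no comparison.

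Over all table entries of these genes, OverlapStart was the most frequent class. It held 14 of 30 SMARCAD1 entries (46.7%, 30.2 to 63.9%), against 39.9% of all SMARCAD1 entries. It held 25 of 34 CBP entries (73.5%, 56.9 to 85.4%), against 50.5% of all CBP entries, which is below this interval. OverlapEnd held 7 SMARCAD1 entries (23.3%), against 24.1%, and 5 CBP entries (14.7%), against 14.8%. Inside held 3 SMARCAD1 entries (10%), against 17.5%, and 2 CBP entries (5.88%), against 18.6%. IncludeFeature held 3 SMARCAD1 entries (RpII15, TfIIA-S and MED21, 10%), against 8.19%, and 2 CBP entries (MED10 and Taf10b, 5.88%), against 5.66%. Upstream held 2 SMARCAD1 entries (MED6 and Taf7, 6.67%), against 6.91%, and Downstream held 1 (MED8, 3.33%), against 3.46%. CBP had 0 of 34 entries in either class, for which the interval reaches 10.2%, against 6.89% Upstream and 3.58% Downstream over all CBP entries. Except for OverlapStart of CBP, the share over all entries lay inside the interval of these genes in every class of both antibodies.

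Some entries away from the start of these genes covered the start of another gene. This held for 5 of 13 SMARCAD1 peaks of this kind, at MED16, MED19, TfIIA-L, TfIIFalpha and TfIIS, against 28.8% of all SMARCAD1 entries that are not over their gene's start. For CBP it was 7 of 7, at MED6, MED16, MED19, Spt5, TfIIA-L, TfIIEalpha and TfIIFalpha, against 29.8% of such CBP entries. The comparison is not of like entries. Each of these 7 was listed because the peak overlaps the gene, and none as the gene with the nearest start. The 29.8% also includes many entries listed for the nearest start. At MED16 both antibodies had a second peak over the start of Vps35, which encodes a retromer subunit, and at TfIIFalpha over that of CG10277. The other 8 SMARCAD1 peaks covered no listed start. They lay over the gene end at RpII215, MED6 and MED28, inside Taf1 and MED19, upstream of MED6 and Taf7 and downstream of MED8.

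Genes of the same machinery with other kinds of name were counted from a list drawn up by function. Of 49 such genes with a RefSeq entry, 31 were listed in the tables. The unlisted e(y)1 and bip2 are other names of Taf9 and Taf3, which were already counted among the 59 family genes. A SMARCAD1 peak covered the start of 16 of these 31 (51.6%, 34.8 to 68%) and a CBP peak that of 22 (71%, 53.4 to 83.9%). Over all listed genes the shares were 45.9% for SMARCAD1 and 59.9% for CBP, both inside these intervals.

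TFIIH, the helicase and kinase complex that opens the promoter, had 7 of 10 genes listed. SMARCAD1 covered 2 of these 7 starts and CBP 6, against 45.9% for SMARCAD1 and 59.9% for CBP over all listed genes, and no interval was computed for so short a list. SMARCAD1 covered the starts of the helicase gene Xpd (-455 bp, CBP -428 bp) and Ssl1 (-465 bp, CBP -431 bp), both shared with CBP. CBP alone covered Tfb4 (-28 bp), mrn (-31 bp), Tfb5 (-75 bp) and Tfb1 (-142 bp). The polymerase subunit genes outside the name rule had 3 of 7 listed. SMARCAD1 covered all 3, Rpb4 at -73 bp, Rpb11 at 535 bp and the Rpb12 gene (CG34186) at 509 bp, and CBP covered Rpb4 alone, at -37 bp.

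In the Mediator kinase module, 0 of 4 listed starts had both antibodies, a number too small to set against the 31.6% of all listed genes. Cdk8 had SMARCAD1 at -799 bp, its cyclin gene CycC had CBP at -169 bp, skd (MED13) had CBP at 1574 bp, and kto (MED12) had neither. Of 10 listed elongation and pausing genes, 4 had both antibodies over the start: hyx, lilli, the Cdk12 gene (CG7597) and the Hexim gene (CG3508). CBP alone covered 3, among them Su(Tpl) and the Ctr9 gene (CG2469), and NELF-B had neither. Over all listed genes, 31.6% had both and 28.3% CBP alone, and no interval was computed for this short list. Nelf-E had CBP alone at -124 bp, TH1 (the NELF-D gene) SMARCAD1 alone at -145 bp and Ssrp, for a subunit of the histone chaperone FACT, SMARCAD1 alone at -188 bp. Pcaf, which encodes the Gcn5 acetyltransferase of SAGA, had both, SMARCAD1 at -311 bp and CBP at -241 bp. The gene of SMARCAD1 itself, Etl1, listed as CG5899, also had both, SMARCAD1 at -215 bp and CBP at -219 bp. The RefSeq table pairs the listed name CG15321 with nej, the CBP gene. That entry, counted among the 31, had neither antibody over its start, and whether its listed start is that of nej was not tested.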

How the data were processed

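Peak tables of 1 SMARCAD1 and 1 CBP ChIP-seq library were used. The authors mapped reads with BWA, called peaks of each library against a control with MACS at a P cutoff and annotated them with ChIPpeakAnno. No further filter of peaks was applied here. Each deposited table gives, in bp, where a peak lies, how wide it is and how far its gene start is. The tables hold no counts or peak strengths, so depth is unknown. The labels name dm6, but the tables use chromosome names such as 3LHet, and 0 of the 37 genes had both the start and the end of its RefSeq Release 6 gene. Coordinates are given as in the tables, and RefSeq was used for names only, with 5907 of 6016 listed names matched. No sequence was printed, since a genome of the tables' build was not used here.

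Starts, covering peaks and shares were computed from all entries with Python 3.11.15, pandas 2.3.3, numpy 2.4.6 and scipy 1.17.1. The rule for a covered start was run on simulated peaks at widely spaced starts, without shared starts or peaks that contain a gene. This shows only that the code applies the rule. Where several peaks covered a start, the one with the nearest center was taken. Genes and lists were chosen with earlier results of these data known. All genes were named by role, with full values for RpII, TfII and Spt genes and for genes lacking 1 antibody or both at the start. Of the Wilson and binomial intervals none is a test. Alternatives were other definitions of a covered start, the nearest-start entry of each peak alone and peaks over no other start.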

Additional observations from a re-analysis of the deposited data

How the results depend on the processing

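In all, 39 recomputed values were compared with 14 results, and 31 stayed within 1.5 times a count or within the interval of a share or median. When the peak center had to lie within 500 bp of the start, SMARCAD1 was counted at 10 genes in place of 17 and both antibodies at 8 in place of 14. With only the nearest-start entry of each peak, SMARCAD1 was counted at 7 genes, CBP at 12, both at 5 and CBP alone at 7, and the share of OverlapStart among CBP entries became 91.7%. These counts are lower by construction, since a peak is then dropped where the start nearest to it is that of another gene. With the class OverlapStart alone, SMARCAD1 alone was left at 1 gene, TfIIFbeta, because the peaks at MED21 and TfIIA-S contain the gene. CBP covered more of these starts than SMARCAD1 under every definition tried. The order was the same over all listed genes, at 59.9% for CBP and 45.9% for SMARCAD1 under the main definition. With OverlapStart alone, SMARCAD1 was counted at 14 of 37 genes and CBP at 25, against 2292 and 3243 of all 6016 listed genes. Among nearest-start entries of all genes, OverlapStart and IncludeFeature held 1521 and 166 for SMARCAD1 and 2117 and 130 for CBP. Inside held 634 of the nearest-start CBP entries and Upstream 439. No share over all listed genes is given for a peak center near the start, or for both antibodies or 1 alone. The planned removal of RNA polymerase III genes was not run, since 0 of the names were of that kind. No paired analysis was possible because there was only 1 library of each kind. A start without a listed peak cannot be told from one below the calling threshold, since the depth is unknown.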
